A study of Mus musculus with 2 samples.

Results

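The chemokine genes Cxcl12, Cxcl13, Cxcl14, Cxcl16 and Ccl11 were followed through the cells of the mouse submandibular gland. They were chosen by name as chemokines of stroma and epithelium, and all 5 had a row in both count tables, out of 27998 genes. The gland is a major salivary gland, and it was dissociated whole and profiled in 10x Chromium droplets. Each droplet carries a cell barcode, and molecular tags (UMIs) count the transcripts by their 3' ends. One library came from a p63 WT mouse and 1 from a p63 KO mouse, both 12 weeks old. p63, the product of Trp63, is the transcription factor that maintains basal epithelium. The labels name the sample source as epithelial progenitor cells although all cells were profiled, and they give neither the way p63 was removed, nor the deleted exons, nor whether glands were pooled.

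Chemokines are small secreted proteins that bind to heparan sulphate on cells and matrix and guide leukocytes through G protein-coupled receptors. Cxcl12 acts through Cxcr4, is scavenged by Ackr3, and retains leukocytes and progenitor cells in stromal niches. Cxcl13 attracts B cells through Cxcr5 and builds lymphoid follicles, also the ectopic follicles of inflamed salivary glands. Cxcl14 is made by many epithelia and fibroblasts, and its receptor is not settled. Cxcl16 is a transmembrane chemokine that binds Cxcr6 and is shed by Adam10. Ccl11, or eotaxin, recruits eosinophils through Ccr3.

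The 5 genes belong to different chemokine classes, which their sequences show. The stretches below are coding sequence around the first conserved cysteines, from GENCODE M21 transcripts on GRCm38, with the codons of these 2 cysteines in capitals. In the CXC genes 1 codon lies between them, and in the CC gene Ccl11 they are adjacent.
Cxcl12: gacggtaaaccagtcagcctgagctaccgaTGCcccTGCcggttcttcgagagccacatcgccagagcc
Cxcl13: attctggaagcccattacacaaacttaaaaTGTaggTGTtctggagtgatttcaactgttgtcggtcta
Cxcl14: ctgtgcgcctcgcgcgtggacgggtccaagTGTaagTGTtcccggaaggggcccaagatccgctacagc
Cxcl16: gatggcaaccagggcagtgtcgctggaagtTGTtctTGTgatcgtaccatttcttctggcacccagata
Ccl11: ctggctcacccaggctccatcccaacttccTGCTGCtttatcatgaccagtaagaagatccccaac
The Cxcl12 stretch lies on the plus strand at chr6:117168713-117171546 and spans the intron between exons 1 and 2. The Cxcl13 stretch is in exon 2 at chr5:95958634-95958702, plus strand. The Cxcl14 stretch joins exons 1 and 2 at chr13:56295885-56296131, minus strand. The Cxcl16 stretch is in exon 2 at chr11:70459097-70459165, minus strand, and the Ccl11 stretch joins exons 1 and 2 at chr11:82058030-82061731, plus strand. The coding sequence is 357 bases long in Cxcl12, 327 in Cxcl13, 297 in Cxcl14 and 291 in Ccl11. Cxcl16 has 738, as it also encodes a mucin-like stalk and a membrane anchor.

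The promoters of Cxcl12 and Cxcl13 are shown because these stromal chemokines differed most in how they were spread over cells (below, Cxcl12 in many cells at a few UMIs and Cxcl13 in few cells at many). Each is the 250 bases before the RefSeq start on GRCm38.p6, read 5′ to 3′. Capitals mark the GC box GGGCGG and TATAAA, each sought on either strand.
Cxcl12: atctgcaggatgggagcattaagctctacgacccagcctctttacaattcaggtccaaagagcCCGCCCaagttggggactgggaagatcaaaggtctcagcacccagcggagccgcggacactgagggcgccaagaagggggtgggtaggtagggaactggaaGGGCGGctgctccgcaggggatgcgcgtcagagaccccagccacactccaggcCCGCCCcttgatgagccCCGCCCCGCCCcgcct
Cxcl13: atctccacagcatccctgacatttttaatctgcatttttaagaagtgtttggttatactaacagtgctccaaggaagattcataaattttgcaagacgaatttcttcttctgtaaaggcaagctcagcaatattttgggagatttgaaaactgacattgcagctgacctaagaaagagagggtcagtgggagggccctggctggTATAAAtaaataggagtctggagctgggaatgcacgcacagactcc
The Cxcl12 window, chr6:117168285-117168534 on the plus strand, had a GC content of 64.4% and 5 GC boxes, of which the last 2 overlap. The Cxcl13 window, chr5:95956689-95956938 on the plus strand, had a GC content of 42% and no GC box. It had 1 TATAAA in the sense of the gene, 46 bases before the start. Over all 32851 promoters of the table the median GC content was 52.4%. A GC box was in 32.7% of them and TATAAA in 12.4%, both counted on either strand. These matches are descriptions of the letters in the windows. The table of promoters held 3 of the 5 genes: Cxcl12, Cxcl13 and Cxcl14.

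The libraries differed in quality and depth, which touches every comparison between genotypes. Barcodes needed 200 genes and a mitochondrial share below 20%, which left 1663 of 1970 WT barcodes and 2423 of 4726 KO barcodes (84.4% and 51.3%). The deposited tables held 8811082 and 11828669 UMIs, and the kept cells had a median of 3406 UMIs in WT and 2088 in KO. The libraries shared 7 kept barcodes. Trp63 itself had 149 UMIs in WT (18.8 CPM, which are UMIs per 1000000 UMIs of the same cells, 95% exact Poisson interval 15.9 to 22.1) and 20 in KO (2.91 CPM, 1.78 to 4.49). Of the KO UMIs, 14 lay in 13 of 85 myoepithelial-like cells, at 50.6 CPM (27.7 to 84.9), which overlaps the 100.1 CPM (54.7 to 168) of the 34 WT cells of that class. Basal duct-like cells, 323 in WT and 41 in KO, had 89 UMIs and 1 UMI (61.5 and 6.95 CPM), so the mix of cells enters the value over all cells. Trp63 was itself 1 of the markers that gated this class, so the class and its Trp63 level are not independent. The 3' tags of Trp63 need not read out a deletion that leaves the 3' end of the gene in place, and the labels do not say which part was removed. All intervals in this text are 95% intervals that cover counting error only, and with 1 library per genotype there was no replicate and no test between genotypes.

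Cells were assigned to classes from marker genes that did not include the 5 chemokines, and the classes are written with "-like" since they rest on RNA alone. The stromal classes were small in WT: 6 fibroblast-like cells against 100 in KO, 64 endothelial-like cells against 306, and pericyte-like (14) and adipocyte-like (19) cells in the KO library only. Of the fixed fibroblast markers with enough UMIs, 6 of 8 were at least 2-fold higher in the WT class than in other cells and 10 of 10 in the KO class. Their summed level was 14506 CPM in WT and 1961 CPM in KO, and the top 10 genes of the KO class (Apod, Gsn, Dcn, Inmt and others) held none of these markers but included Cxcl14, Ccl11 and Cxcl13. Endothelial-like cells had 10 of 10 markers in both libraries. Macrophage-like cells, 80 in WT and 258 in KO, had 8 of 8 and 9 of 9, yet the KO class led with inflammatory genes such as Ccl4, Ccl3 and Cxcl2. Basal duct-like cells fell under the gates in 323 WT and 41 KO cells, and only 3 of 7 markers were 2-fold higher in the latter. Epithelial, lymphoid and other classes made up most of the rest, and 272 WT and 355 KO cells had no class.

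Over all kept cells, 4 of the 5 chemokines were higher in the KO library by the size rule that stood in for a test: 50 UMIs or more when both libraries are summed, and a ratio whose interval lies wholly beyond 2-fold. Of 10285 genes with enough UMIs, 6.72% were higher in KO by that rule and 2.49% lower, 691 and 256 genes. With library sizes scaled by TMM the split was 445 and 416, and the calls of the 5 members did not change. Cxcl12 had 74 UMIs in 46 WT cells and 307 in 189 KO cells, or 9.33 and 44.7 CPM, a ratio of 4.79 (3.70 to 6.26). Cxcl14 had 115 UMIs in 59 cells and 819 in 120, 14.5 and 119 CPM, a ratio of 8.22 (6.76 to 10.1). Ccl11 had 16 UMIs in 8 cells and 424 in 104, 2.02 and 61.7 CPM, a ratio of 30.6 (18.6 to 54.0). The mix of cells enters these values, since the KO library held more stromal cells.

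Cxcl13 had no UMI in any kept WT cell, which allows up to 0.465 CPM, and 643 UMIs in 27 KO cells (93.6 CPM). The level in KO was at least 201-fold higher by the lower bound of the interval, and 247-fold higher against a floor of 3 counts. These values treat UMIs as independent, though 3 KO cells held 50% of them and 1 cell held 187. WT had 6 fibroblast-like cells and no adipocyte-like class, so the mix of cells enters this comparison too. Cxcl16 had 957 UMIs in 561 WT cells and 1196 in 617 KO cells, 121 and 174 CPM, a ratio of 1.44 (1.32 to 1.57) that did not pass the size rule. The median log2 ratio of the 5 genes, with 10 CPM added to each side, was 2.40, beside 0.18 over all genes with enough UMIs.

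**Figure D1:**
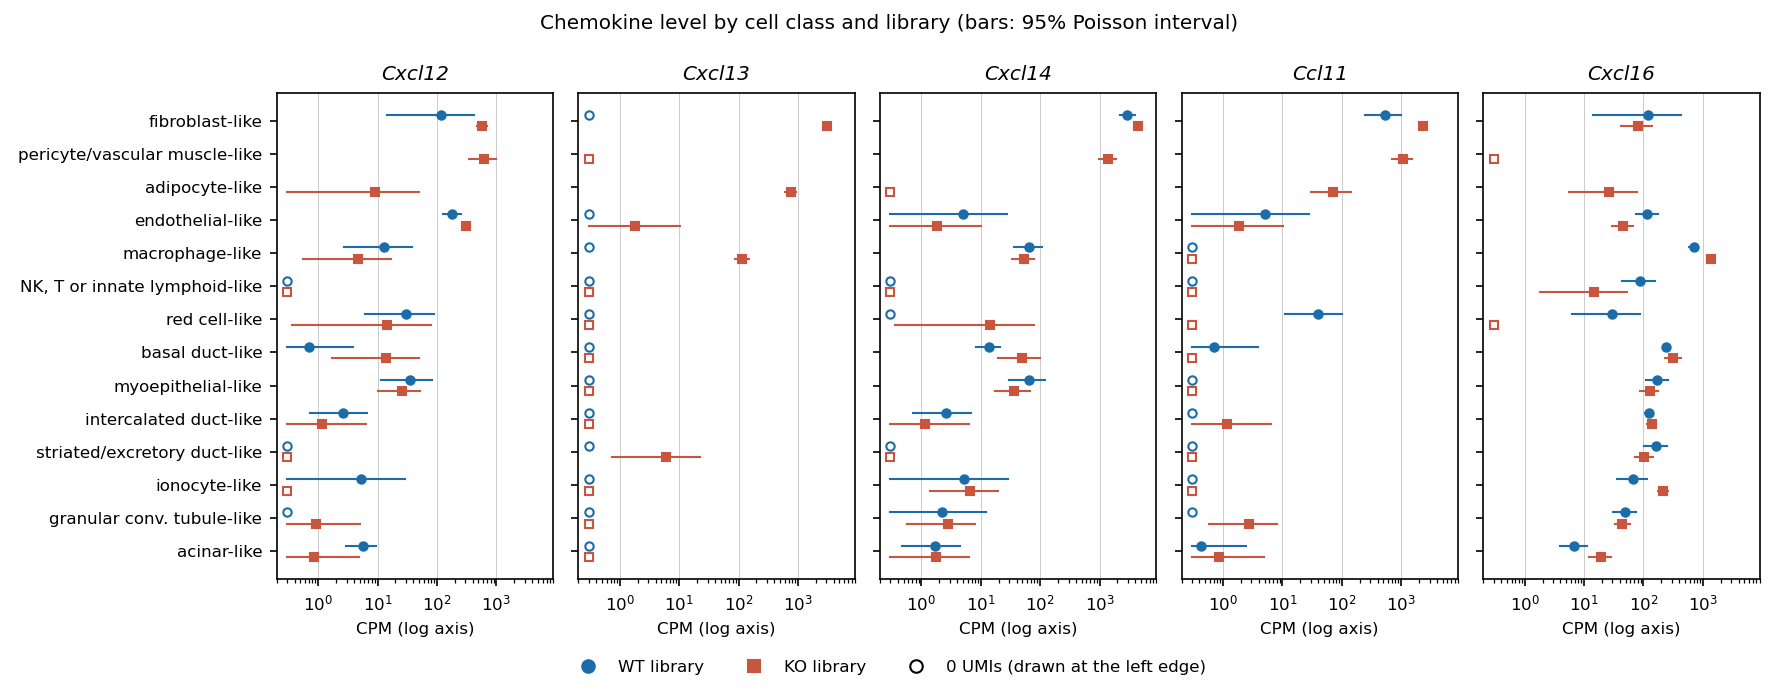
Level of each chemokine in each cell class, in CPM on a log axis, for the WT library (blue circles) and the KO library (red squares), with 95% Poisson intervals as bars and open symbols at the left edge for 0 UMIs. Cxcl13, Cxcl14 and Ccl11 peak in KO fibroblast-like cells at 3105, 4396 and 2324 CPM, Cxcl12 extends to endothelial-like and pericyte-like cells, and Cxcl16 is highest in macrophage-like cells.

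Cxcl12 was found in endothelial-like cells in both libraries and in the stromal classes of KO. WT endothelial-like cells held 36 UMIs in 22 of 64 cells, 181 CPM (127 to 251), and KO endothelial-like cells 170 UMIs in 113 of 306 cells, 310 CPM (266 to 361). This class held 48.6% of all Cxcl12 UMIs in WT and 55.4% in KO, while it held 2.50% and 7.97% of all UMIs. Against the other cells of its library the class was 36.9-fold higher in WT (22.7 to 59.8) and 14.3-fold higher in KO (11.4 to 18.1). By the same size rule, 3.97% and 7.35% of genes were higher in that class. KO fibroblast-like cells held 94 UMIs in 47 of 100 cells, 578 CPM (467 to 707), above the KO endothelial-like level without overlap of the intervals. Pericyte-like cells stood at 610 CPM (349 to 991) from 16 UMIs in 7 of 14 cells, which overlaps the fibroblast-like interval. The 6 WT fibroblast-like cells gave 2 UMIs, 117 CPM (14.2 to 424), an interval that overlaps those of the KO endothelial-like and pericyte-like cells and lies below that of the KO fibroblast-like cells, on 2 UMIs.

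No single cell decided the Cxcl12 level. The highest endothelial-like cell held 4 UMIs in WT and 7 in KO, the highest fibroblast-like cell 11, and 12 of the 47 positive KO fibroblast-like cells held 50% of that class's UMIs. NK, T or innate lymphoid-like cells, which should lack the gene, had it in 0 of 45 WT and 0 of 92 KO cells at median depths of 2617 and 1318 UMIs. The endothelial-like shares were 34.4% and 36.9% at medians of 2841 and 1513 UMIs, and 17.2% and 23.2% after each cell was thinned to 1000 UMIs. Epithelial classes held single UMIs to low levels: myoepithelial-like cells 5 and 7 UMIs (35.7 and 25.3 CPM) and WT acinar-like cells 13 UMIs in 5 cells, of which 1 cell held 7.

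Within endothelial-like cells the KO over WT ratio of Cxcl12 was 1.71 (1.19 to 2.52), with an interval that reaches below 2-fold. By the size rule, 3.40% of genes were higher in KO in this class and 1.83% lower. Haemoglobin and other red cell genes made up 11.9% of the UMIs of WT endothelial-like cells and 2.2% of those of KO, and acinar marker genes stood at 28878 and 4368 CPM. Without the red cell genes in the totals the ratio was 1.54 (1.07 to 2.27). The part of the acinar RNA was not tested.

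Endothelial cells of arteries and veins carry different genes, and these were compared between KO endothelial-like cells with and without a Cxcl12 UMI (113 and 193 cells). The lists were chosen after the values had been seen, and the ratios are descriptions within 1 library. Venous genes (Ackr1, Nr2f2, Selp, Vwf, Lrg1) stood at 880 CPM in the positive cells and 1503 CPM in the others, a ratio of 0.585 (0.493 to 0.693). Selp, an adhesion molecule for leukocytes, had a ratio of 0.381, and Ackr1, a chemokine-binding protein of venules, 0.111. Arterial genes stood at 363 and 240 CPM, a ratio of 1.51 (1.09 to 2.09), led by Hey1, a Notch target, at 2.61 (1.36 to 5.19). Sema3g was at 1.73 and Bmx at 1.55, while Gja4 and Efnb2, both at 0.953, were not higher. Capillary genes were at 1.06. In the 22 and 42 WT cells the arterial ratio was 2.07 (1.18 to 3.67), and the venous ratio 1.10 (0.781 to 1.54). Without the 1 cell that held the most UMIs of a list, the arterial ratio was 1.46 in WT and 1.76 in KO. The venous ratio was then 1.62 in WT and 0.639 in KO. The difference between the libraries in these ratios was not tested.

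Ccl11 and Cxcl14 were fibroblast-like genes in both libraries. Ccl11 had 9 UMIs in 4 of the 6 WT fibroblast-like cells, 529 CPM (242 to 1003), and 378 UMIs in 87 of the 100 KO cells, 2324 CPM (2096 to 2570). The class held 56.3% and 89.2% of all Ccl11 UMIs, and the highest KO cell held 25 with a median of 3 among positive cells. Ccl11 was 339-fold higher in KO fibroblast-like cells than in the rest of that library (249 to 471), where 3.58% of genes were higher by the size rule. Pericyte-like cells had 28 UMIs in 5 of 14 cells, 1068 CPM (710 to 1544), of which 14 lay in 1 cell, and adipocyte-like cells 8 in 4 of 19 cells, 71.4 CPM. In WT, 4 more UMIs came from 1 cell of the red cell class. Macrophage-like cells had none in either library, in 80 and 258 cells.

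Cxcl14 had 50 UMIs in 3 of the 6 WT fibroblast-like cells, 2937 CPM (2180 to 3871), and 715 UMIs in 70 of the 100 KO cells, 4396 CPM (4079 to 4730). Of the WT value, 28 UMIs came from 1 cell, so that class rests on very few cells. In KO the highest cell held 37 UMIs, and the median among positive cells was 8. The class held 43.5% of Cxcl14 UMIs in WT and 87.3% in KO, at 358-fold (242 to 525) and 284-fold (231 to 352) the level of the other cells of its library. In WT fibroblast-like cells 2.22% of genes were higher than in the rest by the size rule.

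Outside the fibroblast-like class Cxcl14 was low but present in 3 other classes. Macrophage-like cells had 15 UMIs in 13 of 80 WT cells (65.0 CPM, 36.4 to 107) and 23 in 19 of 258 KO cells (53.0 CPM, 33.6 to 79.5), a ratio of 0.816 (0.408 to 1.68). Myoepithelial-like cells, the contractile cells around acini, had 9 UMIs in 34 WT cells (64.3 CPM) and 10 in 85 KO cells (36.2 CPM). Basal duct-like cells had 20 UMIs in 17 of 323 WT cells (13.8 CPM) and 7 in 3 of 41 KO cells (48.6 CPM), 27 UMIs in all and below the 50 the size rule asks for. For scale, acinar-like cells, with a median of 5325 UMIs in WT, had a Cxcl14 UMI in 4 of 241 cells (1.66%), against 16.2% of WT macrophage-like cells at a median of 2530.5 UMIs. NK, T or innate lymphoid-like cells had none in either library. In the KO pericyte-like class all 36 UMIs lay in 1 cell.

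Cxcl13 was concentrated in few KO cells. The 100 KO fibroblast-like cells held 505 UMIs, 78.5% of all, at 3105 CPM (2840 to 3388), yet only 18 of them had any. The 18 cells held 187, 87, 60, 37, 32, 27, 15, 13, 12, 10, 8, 6, 3, 2, 2, 2, 1 and 1 UMIs. The highest cell alone held 37.0% of the class's UMIs, and the 5 highest 79.8%. None of the 6 WT fibroblast-like cells had a UMI, and the exact binomial interval for 0 of 6 cells reaches 45.9%, above the 18% of KO cells. The share of positive cells in this class therefore could not be told apart between the libraries.

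The remaining Cxcl13 UMIs lay in a handful of other KO cells. Adipocyte-like cells had 85 UMIs in 4 of 19 cells (62, 21, 1 and 1), 759 CPM (606 to 938), 13.2% of all. The cell with 62 UMIs also had 29 UMIs of adipocyte markers and 5 of fibroblast markers. Macrophage-like cells had 50 UMIs in 2 of 258 cells, 49 of them in 1 cell that carried 44 UMIs of macrophage markers and none of fibroblast markers. That cell alone takes Cxcl13 in macrophage-like cells past the size rule, with a lower bound of the ratio of 6.95, in a class where 7.08% of genes were higher and 4.89% lower. Without it the log2 ratio, with 10 CPM added to each side, was 0.30.

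The KO fibroblast-like cells were not uniform in these genes. Of the 100 cells, 18 had UMIs of 1 of the 5 chemokines, 37 of 2, 40 of 3 and 5 of 4. Ccl11 and Cxcl14 were found together in 64 cells, 91.4% of those with Cxcl14 and 73.6% of those with Ccl11. Cxcl12 and Ccl11 shared 44 cells, 93.6% of those with Cxcl12 and 50.6% of those with Ccl11. Cxcl13 and Cxcl14 shared 3 cells, 16.7% of the 18 with Cxcl13 and 4.29% of the 70 with Cxcl14. Thinned to 1000 UMIs per cell, that overlap was 2 cells of 16 and 65, and without the cells of highest doublet score 2 of 13 and 64. All these cells come from 1 library and are no replicates of a condition.

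Summed over cells, those with Cxcl13 also carried more UMIs of inflammatory genes. The list (Ccl2, Ccl7, Tnfaip6, Il6, Cxcl1, Saa3) was chosen after the values had been seen. It stood at 18945 CPM in the 18 cells with Cxcl13 and 3795 CPM in the 82 without, a ratio of 4.99 (4.44 to 5.62), with a UMI in 17 of 18 and 32 of 82 cells. Median depths were 1808.5 and 1486.5 UMIs. The list varied among the cells with the most Cxcl13. The cells with 187, 87 and 37 Cxcl13 UMIs had 40.5, 20.3 and 11.4 list UMIs per 10000. Those with 60, 32 and 27 had 331, 129 and 182, beside 37.9 summed over the cells without Cxcl13. Cxcl1, a neutrophil attractant, had a ratio of 9.93 (7.86 to 12.6) and was in 13 of 18 and 18 of 82 cells. Tnfaip6, a hyaluronan-binding protein induced by inflammatory cytokines, had a ratio of 5.39 (3.79 to 7.74) and was in 15 and 14 cells. Ccl2 and Ccl7, attractants of monocytes, were at 3.52 and 4.0. Saa3, an acute-phase protein, went the other way, with 0 UMIs in the cells with Cxcl13 and 15 in the others.

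Dcn, the matrix proteoglycan decorin, and Gsn, the actin-severing protein gelsolin, were lower in the cells with Cxcl13, with ratios of 0.474 (0.423 to 0.530) and 0.532 (0.488 to 0.578). Per 10000 UMIs, the median cell with Cxcl13 had 79.0 UMIs of Dcn and 121 of Gsn, and the median cell without it 172 and 301. Both belong to a list of matrix genes chosen after the values had been seen, and its other genes were mixed. Col1a2 (0.834) and Lum (0.642) were below 1, Col3a1 (1.33) and Col1a1 (6.24) above, with Col1a1 in 5 of 18 and 4 of 82 cells. The split by Cxcl14 ran the other way. The 70 cells with Cxcl14 had 3337 CPM of the inflammatory list and the 30 without it 14643 CPM, a ratio of 0.228 (0.201 to 0.258), while Dcn and Gsn had ratios of 1.41 and 1.89. In this split Col1a2 (1.65) and Lum (2.24) were above 1, and Col3a1 (0.516) and Col1a1 (0.287) below. Without the 1 cell that held the most UMIs of the inflammatory list, the ratios of that list were 7.02 for Cxcl13 and 0.139 for Cxcl14. Since 15 of the 18 cells with Cxcl13 lacked Cxcl14, the 2 splits are not independent of each other. The whole class held 2 UMIs of macrophage markers and 0 of adipocyte markers.

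**Figure D2:**
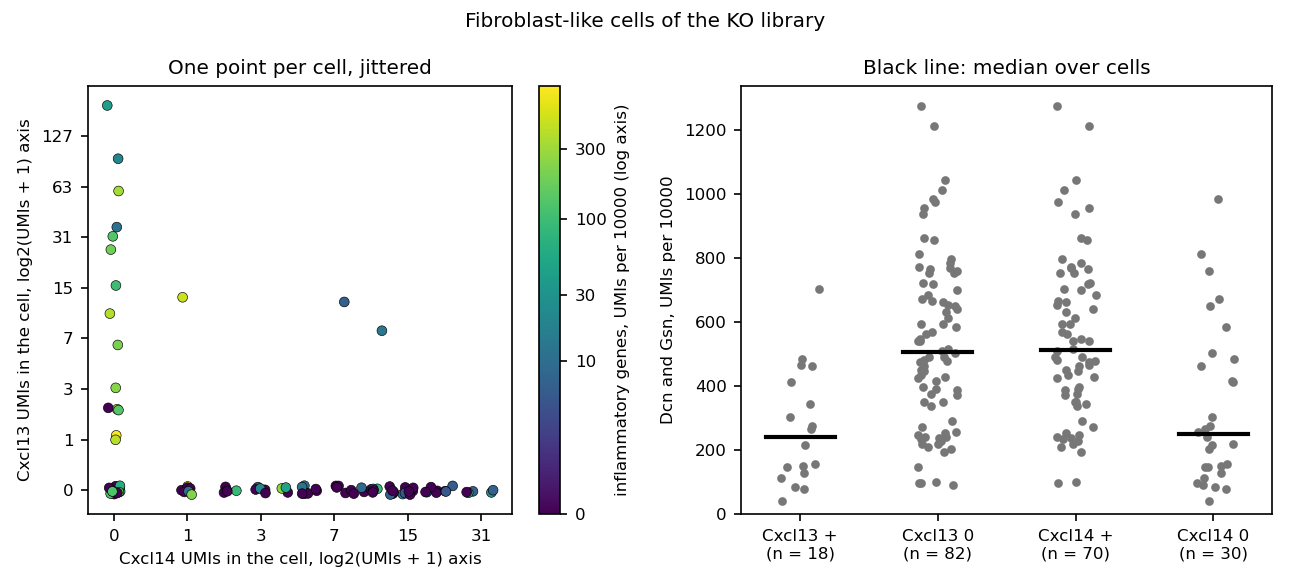
The 100 KO fibroblast-like cells: at left, Cxcl14 against Cxcl13 UMIs of each cell on log2(UMIs + 1) axes with jitter, coloured by UMIs of the inflammatory list per 10000, and at right, Dcn and Gsn UMIs per 10000 in cells with and without each chemokine, with black lines at the medians. Only 3 cells carry both chemokines, and the 18 cells with Cxcl13 have lower Dcn and Gsn medians than the 82 without.

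Cxcl12, Cxcl14 and Cxcl16 all had UMIs in most classes. Cxcl16 differed from the other 4 genes in the share of kept cells that held it, 33.7% in WT and 25.5% in KO. The next highest share was 3.55% in WT, for Cxcl14, and 7.80% in KO, for Cxcl12. Macrophage-like cells had the highest Cxcl16 level in both libraries, 161 UMIs and 697 CPM (594 to 814) in WT, and 596 UMIs and 1373 CPM (1265 to 1488) in KO. They were 6.74-fold (5.66 to 8.0) and 14.7-fold (13.1 to 16.5) above the rest of their library, where 4.44% and 7.16% of genes were higher by the size rule. The next level, in WT, was that of basal duct-like cells with 345 UMIs in 186 of 323 cells, 238 CPM (214 to 265). Myoepithelial-like cells followed with 172 CPM, striated or excretory duct-like with 162, intercalated duct-like with 122, fibroblast-like with 117 (2 UMIs) and endothelial-like with 116. NK, T or innate lymphoid-like cells had 86.1 CPM, ionocyte-like 67.4, granular convoluted tubule-like 49.0 and red cell-like 29.9 (3 UMIs). Acinar-like cells were lowest at 6.86 CPM (3.92 to 11.1). The intervals of neighbours overlapped in this WT order, except between macrophage-like and basal duct-like cells. In KO the order was macrophage-like, basal duct-like (320 CPM, 234 to 426), ionocyte-like (215, 174 to 262), intercalated duct-like (138, 114 to 164) and myoepithelial-like (127, 88.1 to 176), with acinar-like cells at 19.0 and no UMI in pericyte-like cells. Here macrophage-like cells stood apart from basal duct-like cells, and ionocyte-like from intercalated duct-like cells, while the other neighbours named overlapped.

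The classes that held most Cxcl16 UMIs differed between libraries. In WT, 36.1% came from basal duct-like, 19.3% from intercalated duct-like and 16.8% from macrophage-like cells. In KO, 49.8% came from macrophage-like, 10.0% from intercalated duct-like and 8.11% from ionocyte-like cells. Macrophage-like cells held 2.91% of all UMIs in WT and 6.32% in KO, and basal duct-like cells 18.3% and 2.1%. With stricter gates the basal duct-like share of Cxcl16 in WT was 5.22%, below the macrophage-like share of 16.5%. The level over all kept cells differed by 1.44-fold between the libraries.

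Within classes, no Cxcl16 difference between KO and WT passed the size rule. In macrophage-like cells the ratio was 1.97 (1.65 to 2.36). The share of cells with a Cxcl16 UMI was 78.8% in WT and 78.7% in KO, and 46.2% and 71.7% after thinning. Median depths were 2530.5 UMIs in WT and 1554 in KO. In ionocyte-like cells, which carry Foxi1 and Ascl3, the ratio was 3.19 (1.78 to 6.21) from 13 and 97 UMIs. It was 1.34 (0.963 to 1.83) in basal duct-like, 1.13 (0.891 to 1.43) in intercalated duct-like, 0.905 (0.536 to 1.57) in granular convoluted tubule-like and 0.738 (0.426 to 1.30) in myoepithelial-like cells, 4 intervals that include 1. Endothelial-like cells had 23 and 25 UMIs, acinar-like cells 16 and 22, and NK, T or innate lymphoid-like cells 11 and 2, all short of the 50 that the rule asks for. In the classes where Cxcl16 had a ratio above 1, the share of all genes that were higher in KO by the size rule was 1.51% in ionocyte-like, 1.40% in basal duct-like, 1.73% in intercalated duct-like and 23.2% in acinar-like cells. Where its ratio was below 1, the share of genes that were lower was 1.21% in granular convoluted tubule-like, 3.12% in myoepithelial-like and 3.83% in lymphoid-like cells.

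Macrophage-like cells with Cxcl16 were also compared with those without, with lists chosen after the values had been seen. In KO, inflammatory genes (Ccl3, Ccl4, Cxcl2, Il1b, Tnf) stood at 54374 CPM in the 203 cells with Cxcl16 and 30124 CPM in the 55 without, a ratio of 1.80 (1.73 to 1.88). Tnf was at 2.61 and Cxcl2 at 2.18, and complement C1q genes at 0.755. In WT, with 63 and 17 cells, the ratio of the inflammatory list was 1.15 and that of MHC class II genes 1.66, against 0.983 in KO. Neutrophil markers were at 21.7 CPM in the WT class and 48.4 CPM in the KO class, from 26 UMIs in all, too few to compare, and S100a8 and S100a9, genes of neutrophils and monocytes, were among the top 10 genes of the KO Leiden cluster of macrophage-like cells. The part of this in the Cxcl16 level was not tested.

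**Figure D3:**
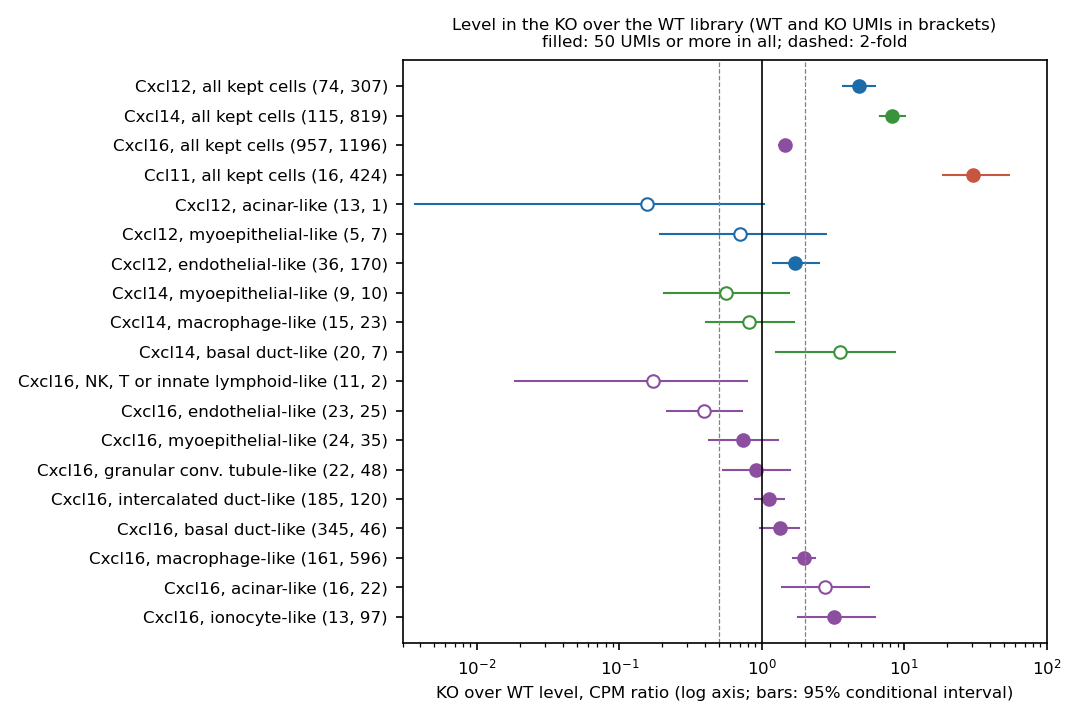
KO over WT ratio of CPM for each chemokine over all kept cells and within classes, on a log axis with 95% conditional intervals, with WT and KO UMIs in brackets, filled points for 50 UMIs or more in all, and dashed lines at 2-fold. Cxcl12, Cxcl14 and Ccl11 lie beyond 2-fold over all cells, no drawn value within a class has at least 50 UMIs and an interval wholly beyond 2-fold, and Cxcl13 is not drawn because WT holds 0 UMIs.

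The receptors of the 5 ligands were sparse. Of 22 chemokine receptors, 5 reached 50 UMIs over both libraries. Over all kept cells 2 of these were higher in KO and 0 lower, beside 6.72% of all genes higher and 2.49% lower. Their median log2 ratio was 0.34, beside 0.18 for all genes. Ackr3, the scavenger of Cxcl12, had 27 UMIs in WT and 119 in KO, a ratio of 5.09 (3.33 to 8.04). It lay in endothelial-like cells (10 UMIs in 9 of 64 WT cells, 76 in 59 of 306 KO cells, 50.4 and 139 CPM) and in myoepithelial-like cells (11 UMIs in 9 of 34, 25 in 19 of 85, 78.6 and 90.4 CPM). The mix of cells enters the ratio over all cells. Within endothelial-like cells the Ackr3 ratio was 2.75 (1.42 to 5.97), which did not pass the rule. Endothelial-like cells thus held both Cxcl12 and its scavenger in both libraries. Cxcr4, the signalling receptor, had 15 and 35 UMIs, in KO 19 of them in macrophage-like and 11 in NK, T or innate lymphoid-like cells.

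Cxcr5, the receptor of Cxcl13, and Ccr3, the receptor of Ccl11, had 0 UMIs in both libraries, so the depth showed no cell that carried them. Cxcr6, the receptor of Cxcl16, had 3 UMIs in WT and 6 in KO, 5 of them in 4 of 92 NK, T or innate lymphoid-like cells. Ccr1, a receptor of Ccl3 and other inflammatory chemokines, had 1 UMI in WT and 104 in KO, a ratio of 120 (21.1 to 4786), with 102 in 60 of the 258 KO macrophage-like cells. Cx3cr1, a receptor of resident macrophages, had 42 and 14 UMIs, a ratio of 0.385 (0.194 to 0.719) that did not pass the rule. Ackr4 and Ccr7 were below the 50 UMIs, with 42 and 45 UMIs in WT and 1 each in KO, and 31 of the Ackr4 UMIs were in WT basal duct-like cells.

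**Figure D4:**
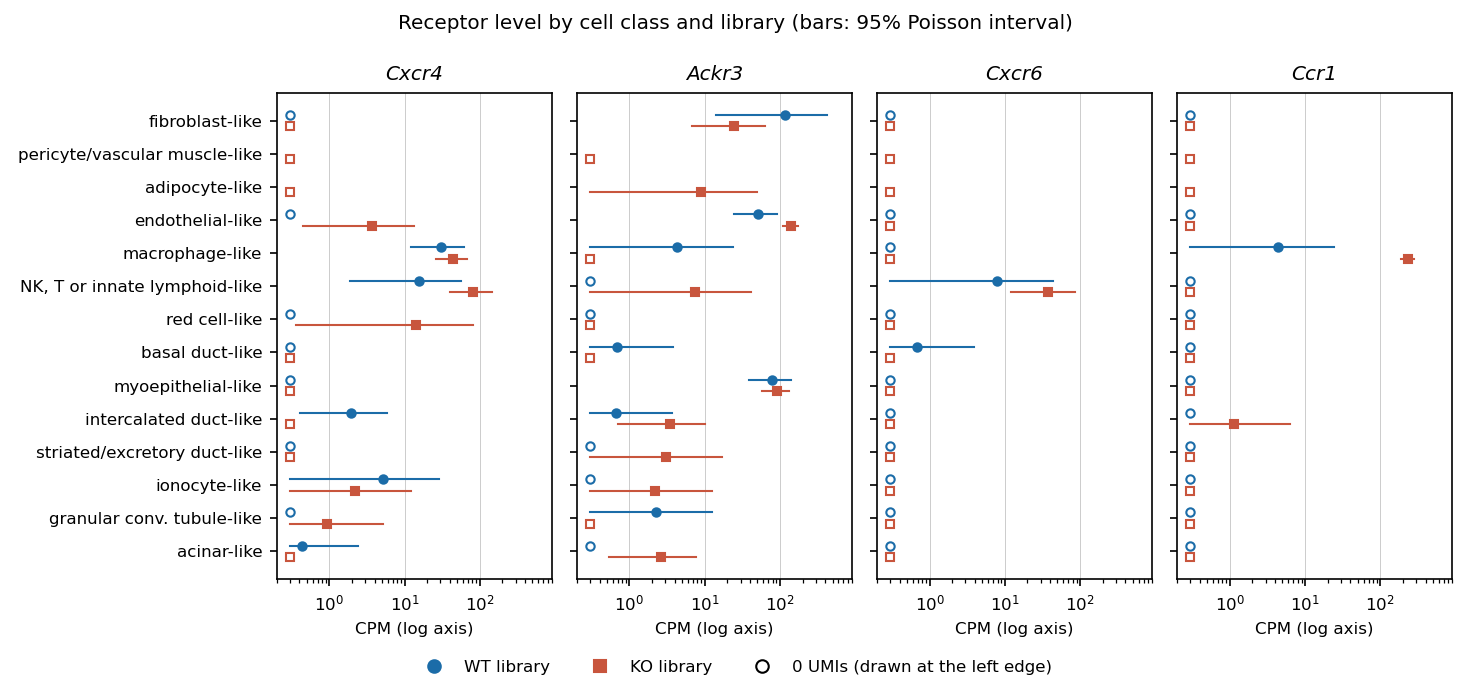
Level of the receptors Cxcr4, Ackr3, Cxcr6 and Ccr1 in each cell class, in CPM on a log axis, for WT (blue circles) and KO (red squares), with 95% Poisson intervals and open symbols for 0 UMIs. Ackr3 is high in endothelial-like and myoepithelial-like cells of both libraries, with a WT fibroblast-like value that rests on 2 UMIs, and Ccr1 stands out in KO macrophage-like cells at 235 CPM.

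Among 31 other chemokines, 20 had at least 50 UMIs, 7 were higher in KO and 1 was lower, with a median log2 ratio of 0.34. The 7 were the monocyte attractants Ccl2 (ratio 4.36) and Ccl7 (4.02), the inflammatory Ccl3 (8.01) and Ccl4 (3.65), the neutrophil attractants Cxcl2 (7.92) and Cxcl3 (16.5), and Ccl28 (3.13), a mucosal epithelial chemokine. Within macrophage-like cells Ccl3 (4.12), Cxcl2 (4.38) and Cxcl3 (10.3) were also higher by the rule. Ccl4 (2.0, 1.92 to 2.09), Ccl2 (1.02, 0.829 to 1.25) and Ccl7 (0.607, 0.443 to 0.834) were not, and Ccl4 was lower in NK, T or innate lymphoid-like cells, with 232 and 44 UMIs (0.180). Over all kept cells Ccl12 was lower, with 118 UMIs in WT and 14 in KO, a ratio of 0.137. Cxcl17, an epithelial chemokine, was abundant with 2670 and 2488 UMIs and did not pass the rule (1.08, 1.02 to 1.14). Neither did Cxcl1 with 1774 and 3208 UMIs (2.09, 1.97 to 2.21). Within macrophage-like cells, where 7.08% of genes were higher by the rule, Cxcl1 did pass (4.28, 3.43 to 5.41). In acinar-like cells, where 23.2% of genes were higher, Cxcl1 (3.27, 2.50 to 4.28), Cxcl17 (6.03) and Ccl28 (4.48) passed as higher and Ccl5 (0.191) as lower. Of the 15 genes that process chemokines or carry heparan sulphate, 13 had at least 50 UMIs over all kept cells. None of these passed the rule there, beside 6.72% of all genes higher and 2.49% lower, and their median log2 ratio was -0.012. Sdc4, a heparan sulphate proteoglycan, had the most UMIs at 651 and 839 CPM, and Adam10, the protease that sheds Cxcl16, stood at 29.9 and 29.5 CPM, a ratio of 0.989 (0.816 to 1.20). Dpp4, a peptidase that inactivates Cxcl12, was at 20.2 and 14.3 CPM, and Sdc1 and Sdc2, other syndecans, had ratios of 0.635 and 1.39.

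The genes whose levels followed each chemokine most closely were taken over 23 sums of UMIs per class and library, as Pearson's r of log2(CPM + 10) among 10272 genes. The sums share libraries and depth, and r is a description. Cxcl12 ran with Mustn1 (0.94), Sept4, Mfap2, Fam198b and Igfbp3 (0.92). Cxcl13 ran with Saa1 (0.99), Mmp19, Ifi205, Tnfaip6 (0.96) and C4b. Cxcl14 ran with Cd302 (0.92), Lrp1, Scn7a and Dpep1, and Ccl11 with Mmp2 (0.98), Mmp3, Mrap, Ms4a4d and Nnmt. Cxcl16 ran with Cstb (0.91), Sowahc, Smyd5, Anxa5 and Hspa5. For the 4 stromal genes these values rest on the few sums, above all KO fibroblast-like cells, in which they were high.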

How the data were processed

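Single-cell RNA-seq was available for 1 WT and 1 KO library. The deposited files hold the authors' raw UMI counts, genes by barcodes. Build mm10 and the tools bcl2fastq 2.19.1, Cell Ranger 2.1.0 and Seurat 3.1.2 are listed in the submitters' processing notes, without roles. The choice of barcodes by the authors was not given in the sources used here. Ensembl identifiers received symbols from GENCODE M21, 27645 of 27998.

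Kept barcodes had 200 genes or more and a mitochondrial share below 20%. In each library, scores of 19 marker sets, averaged over 15 neighbours in 30 principal components of 2000 variable genes, gated cells into classes (score at least 0.5, margin 0.25). These limits were set after the cells had been seen, and 17.4% of WT and 9.74% of KO cells lay near them. The 5 chemokines entered neither gates nor variable genes. Trp63 and the lists of receptors, other chemokines and processing genes were kept out of the variable genes. Trp63 was, however, a marker of the basal duct gate, and the receptors Ccr7 and Xcr1 were dendritic markers. Col1a1, Col1a2, Col3a1 and Lum of the matrix list were fibroblast markers. Doublets were kept. Scrublet's automatic limit marked 1 WT and 4 KO cells and did not work, so the 31 and 179 highest scores were left out as an alternative.

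Levels are UMIs of a class in a library divided by the class total (CPM). Intervals were exact Poisson, binomial or conditional intervals. Genotypes were compared in classes of 20 or more cells per library, except the striated or excretory duct-like class, whose KO cells held more markers of another class than of their own among their top 10 genes. Counts were also simulated as independent Poisson draws, the model that the intervals assume. There the intervals held the true ratio in 95.7% of 10235 genes over all cells. In these draws 4-fold increases were called for 40 of 50 genes in endothelial-like and 43 of 50 in macrophage-like cells. The draws leave out the clumping of UMIs in single cells, so they do not check the intervals for genes such as Cxcl13.

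Named genes were the 5 members, their receptors, list members past the size rule, the 5 list members with most UMIs and the 5 genes most alike to each member, of which some are not reported here. Other names, and the endothelial, fibroblast and macrophage subset lists, were chosen after values were seen. The members and lists were chosen with earlier results of these data known. Alternatives were other barcode filters, Leiden clusters, stricter gates, thinning to 1000 UMIs, TMM scaling, another UMI minimum, and leaving out doublets, red cell genes or the highest cell. Python 3.11.15, scanpy 1.11.5, leidenalg 0.10.2, scipy 1.17.1, R 4.3.3 and edgeR 4.0.16 (TMM factors only) were used.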

Additional observations from a re-analysis of the deposited data

Results flagged for a closer look

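Cxcl16 lay above WT in some KO classes and below it in others, with intervals that do not include 1. The KO over WT ratio was 2.77 in acinar-like cells (1.39 to 5.65, 38 UMIs in all), 3.19 in ionocyte-like and 1.97 in macrophage-like cells. It was 0.394 in endothelial-like cells (0.215 to 0.726) and 0.172 in NK, T or innate lymphoid-like cells (0.0185 to 0.788), both with fewer than 50 UMIs. The difference between classes was not tested.

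Barcodes left out by the filter also held UMIs of the 5 genes. The 307 WT barcodes had 4 UMIs of Cxcl14 and 38 of Cxcl16 (43.2 CPM). The 2303 KO barcodes had 10 UMIs of Cxcl12, 34 of Cxcl13 in 4 barcodes, 32 of Cxcl14 in 8, 210 of Cxcl16 in 181 (42.4 CPM) and 12 of Ccl11.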

How the results depend on the processing

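No paired analysis was possible because each genotype has 1 library, and leaving out a replicate was not possible either. Over all kept cells, the 45 values of the 5 chemokines under alternatives kept their direction and their side of the size rule. Within classes 76 of 86 did. Cxcl13 in macrophage-like cells no longer passed after thinning (log2 ratio 3.61), which left 29 UMIs in KO and 0 in WT, short of the 50 the rule asks for. Nor did it pass without its highest cell (log2 ratio 0.30). Cxcl16 ratios near 1 changed sign: intercalated duct-like under the strict filter (log2 -0.0030), after thinning (-0.17) and with stricter gates (-0.063), myoepithelial-like after thinning (0.92), and granular convoluted tubule-like with no filter (0.11), Leiden clusters (0.21), stricter gates (0.12) and doublets left out (0.029). The causes of these sign changes were not tested.

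Of the shares of a gene's UMIs that lay in a class, 56 of 75 stayed within their interval. Those that moved were, after thinning, Cxcl12 in KO fibroblast-like (37.1%), Cxcl14 in KO fibroblast-like (90.0%), and Cxcl16 in WT basal duct-like (30.5%), WT macrophage-like (24.1%) and KO macrophage-like cells (63.8%). Under the strict filter Cxcl13 and Cxcl14 in KO fibroblast-like cells were both at 90.9% and Cxcl16 in KO macrophage-like cells at 58.6%. With no filter the Cxcl14 share was 92.1% and the Cxcl16 share 43.2%. With Leiden clusters Cxcl14 was at 91.7% and Cxcl16 in WT basal duct-like cells at 40.6%. With stricter gates Cxcl14 was at 75.9%, Ccl11 at 82.1%, and Cxcl16 at 5.22% in WT basal duct-like and 46.9% in KO macrophage-like cells. The Cxcl13 share was 74.7% without doublets and 69.7% without the highest cell, and the WT Cxcl14 share 25.3% without the highest cell.

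Of the shares of cells with a UMI, 47 of 54 stayed within their interval, and the 7 that moved did so after thinning, which removes UMIs: Cxcl12 in endothelial-like cells 17.2% in WT and 23.2% in KO, in KO fibroblast-like cells 31%, Ccl11 in KO fibroblast-like cells 75%, and Cxcl16 46.2% in WT and 71.7% in KO macrophage-like and 20.1% in WT basal duct-like cells.

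Counts of genes past the size rule fell after thinning, from 947 to 457 over all cells, 103 to 45 in endothelial-like, 186 to 85 in macrophage-like, 97 to 34 in basal duct-like, 206 to 47 in intercalated duct-like, 56 to 24 in ionocyte-like, 70 to 23 in myoepithelial-like and 94 to 50 in granular convoluted tubule-like cells. With a minimum of 10 UMIs they were 166 in endothelial-like, 303 in macrophage-like, 124 in ionocyte-like, 130 in myoepithelial-like and 149 in granular convoluted tubule-like cells. Under the strict filter they were 26 in ionocyte-like and 59 in granular convoluted tubule-like cells, and with no filter 144 in the latter. TMM scaling moved the median log2 ratio by -0.16 over all cells, 0.16 in macrophage-like, -0.25 in basal duct-like and 0.15 in ionocyte-like cells. It changed the higher and lower genes from 110 and 76 to 156 and 62 in macrophage-like, from 47 and 50 to 27 and 83 in basal duct-like, and from 25 and 31 to 36 and 25 in ionocyte-like cells. Stricter gates (4 KO cells) and the strict filter gave no basal duct-like comparison, and the WT Leiden clusters held no fibroblast-like cluster.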
